A study of Mus musculus with 15 samples.

Results

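The citrate cycle enzymes described here were 9 nuclear genes, Cs, Idh3a, Idh3b, Idh3g, Ogdh, Suclg1, Sucla2, Fh1 and Mdh2, chosen by name as the rows of the deposited gene count table that carry these symbols. All 9 were found among the 37681 rows of the table, and all 9 passed the filter on low counts that left 15134 genes for testing. The rule itself used no measured value, but the 9 genes and the lists set beside them were chosen with earlier results of these data known. The table came from polyadenylated RNA of the thoracic aorta of adult male C57BL/6 wildtype mice aged 10 to 12 weeks, with 15 libraries in 3 groups of 5, each library a separate biological replicate by the submitters' account. One group received celecoxib at 30 mg/kg, another rofecoxib at 10 mg/kg, and the control group the vehicle alone, PEG-400 (polyethylene glycol). Every mouse was given 100 uL by gavage and its aorta was taken 6 hours later, in the light phase at Zeitgeber hour 11. Celecoxib and rofecoxib are selective inhibitors of the inducible cyclooxygenase, and the groups share a single vehicle control, so the comparisons of each compound with vehicle are not independent of each other.

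The citrate cycle takes up acetyl groups derived from carbohydrate, fatty acids and amino acids in the mitochondrial matrix, oxidises them to carbon dioxide, and passes the electrons as NADH and reduced flavin to the respiratory chain. Citrate synthase starts the cycle, the isocitrate and oxoglutarate dehydrogenases carry out its oxidative decarboxylations, succinyl-CoA ligase makes a nucleoside triphosphate, and fumarase and malate dehydrogenase regenerate oxaloacetate. Its enzymes are made in nearly every nucleated cell and are abundant in brown adipocytes, a cell type packed with mitochondria that also lies in the fat around the thoracic aorta. In a piece of vessel, RNA from smooth muscle, endothelium, adventitia and any attached fat is pooled.

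Library totals in the deposited table lay between 30937046 and 30967115 counts and thus within 0.0971% of each other, with 19158 to 19746 genes detected and scaling factors between 0.953 and 1.04. Levels are given as CPM, the count of a gene relative to the scaled library size. Against the tissue label, the 10 smooth muscle markers, led by Acta2, Myh11 and Tagln, summed to between 41019.9 and 57465 CPM in every library. All 37 rows of the mitochondrial genome were listed at 0, so only nuclear genes were described. In bulk RNA, fewer cells of a type and less RNA per cell cannot be told apart.

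RefSeq promoter windows on GRCm38.p6 were matched by symbol for 8 of the 9 genes, Idh3a being the exception. The stretches printed are those of the gene that opens the cycle (Cs), of fumarase (Fh1) and of the gamma subunit of isocitrate dehydrogenase (Idh3g), since they hold the short motifs that were searched for. Each runs 5′ to 3′ on the strand of the gene and ends at the base before the RefSeq start. Those of Cs and Fh1 hold 250 bases, and that of Idh3g holds 130 because an exon of the neighbouring gene Ssr4 begins farther upstream. Capitals mark the CCAAT box, written ATTGG where it lies on the opposite strand, and in Idh3g the core letters bound by ETS family factors.
Cs, chr10:128337477-128337726, plus strand: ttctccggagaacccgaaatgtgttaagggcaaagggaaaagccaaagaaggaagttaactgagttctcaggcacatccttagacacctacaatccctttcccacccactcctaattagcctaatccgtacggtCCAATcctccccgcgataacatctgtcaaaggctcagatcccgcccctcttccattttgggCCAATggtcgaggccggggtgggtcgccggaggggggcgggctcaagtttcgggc
Fh1, chr1:175625636-175625885, minus strand: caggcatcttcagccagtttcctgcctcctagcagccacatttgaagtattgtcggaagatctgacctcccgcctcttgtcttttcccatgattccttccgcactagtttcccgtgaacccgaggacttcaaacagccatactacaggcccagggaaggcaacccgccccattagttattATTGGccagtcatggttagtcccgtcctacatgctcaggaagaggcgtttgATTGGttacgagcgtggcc
Idh3g, chrX:73786898-73787027, minus strand: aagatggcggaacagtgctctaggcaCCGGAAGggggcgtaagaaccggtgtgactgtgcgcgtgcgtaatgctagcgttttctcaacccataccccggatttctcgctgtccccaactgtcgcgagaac

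CCAAT was found on either strand within 250 bases before the start of 4 of the 8 genes matched, Fh1, Idh3b, Cs and Ogdh, against 34.5% of the 27025 promoters in the table. In Cs the matches lay 116 to 112 and 55 to 51 bases before the start, and in Fh1 70 to 66 and 19 to 15 bases before it. For Cs and Ogdh, the bases just after the RefSeq start were not found near the start of a GENCODE M21 transcript of that gene. Distances in these genes rest on the RefSeq start alone. The ETS core CCGGAAG was found in 1 of 8, Idh3g, 104 to 98 bases before its start, against 7.05% of all promoters. AAGGTCA, the letters of the short site bound by oestrogen-related receptors, was in 0 of 8 windows against 4.05% of all. GCATGCGC, a core of the nuclear respiratory factor site, was in 0 of 8 windows against 2.32% of all. Both strands were searched for every motif, and no 2 of the matches in these windows overlapped. A match is a run of letters and not a shown site of binding, and no difference between the groups was tied to it.

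Compared per kilobase of merged exon (GENCODE M21), the vehicle libraries carried Mdh2 at 135 ± 28.2, Cs at 130.3 ± 23.9, Idh3g at 129 ± 25.1, Idh3b at 116 ± 23.5 and Ogdh at 103 ± 18.5 CPM per kilobase (SD, n = 5). Sucla2 followed at 95.5 ± 22.2, Suclg1 at 80.5 ± 15.0, Idh3a at 74.8 ± 24.3 and Fh1 at 39.7 ± 7.07 CPM per kilobase. Neighbours in this order overlapped in their vehicle libraries, with the exception of the last pair: Fh1 reached 51.1 CPM per kilobase at most and Idh3a began at 52.5. Among the 3 subunit genes of isocitrate dehydrogenase, the catalytic alpha subunit Idh3a thus had a lower mean than the beta and gamma subunits Idh3b and Idh3g. Their ranges over the vehicle libraries overlapped, and the levels per kilobase were not compared within each library. The exon lengths come from a later annotation than the counts may have used, which bears on the order of the genes and not on the comparisons between groups.

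Against vehicle, all 9 transcripts had lower mean levels after celecoxib and after rofecoxib. After celecoxib the means were 0.596 times (Idh3a) to 0.814 times (Mdh2) those of vehicle, with a median log2 fold change over the 9 genes of -0.51, beside 0.0051 over all genes tested. After rofecoxib they were 0.676 times (Idh3a) to 0.816 times (Ogdh), with a median of -0.40, beside a median over all genes of -0.000666. None of the 9 passed a Benjamini-Hochberg adjusted p of 0.05 in edgeR's quasi-likelihood test in either comparison, in which no gene at all was called.

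For celecoxib against vehicle, adjusted p in edgeR's quasi-likelihood test (Benjamini-Hochberg over all genes) ranged from 0.269 to 0.455 over the 9 genes, and the share of all genes called was 0%. At an unadjusted p under 0.05, 8 of the 9 lay lower, Mdh2 being the exception, beside 7.18% of all genes tested. No gene of the 9 had celecoxib and vehicle libraries that did not overlap, beside 0.74% of all genes with every celecoxib library below every vehicle library. DESeq2 called 3 of the 9 lower (Cs, Suclg1 and Fh1, smallest adjusted p = 0.0221) among 126 genes in all, and limma-voom called 0. The calls after celecoxib therefore depended on the tool, while the fold changes of the tools differed little (medians of -0.50 with both alternatives).

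For rofecoxib against vehicle, the adjusted p of edgeR's quasi-likelihood test (Benjamini-Hochberg) was 0.896 for each of the 9 genes, and 0% of all genes were called. At an unadjusted p under 0.05, 9 of 9 lay lower, beside 3.71% of all genes tested. Again 0 of the 9 had groups that did not overlap, beside 0.72% of all genes in that direction. DESeq2 and limma-voom each called 0 of the 9. Without vehicle library 5, the highest vehicle library for all 9 genes, the count at an unadjusted p under 0.05 was 4 of 9 and the median log2 fold change -0.28. Without that library the celecoxib count was 8 of 9, with a median of -0.40. Over all genes, those at that threshold in either direction numbered 453 of 15333 without the library for rofecoxib, against 784 of 15134 with it, and 1330 against 1896 for celecoxib.

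**Figure D1:**
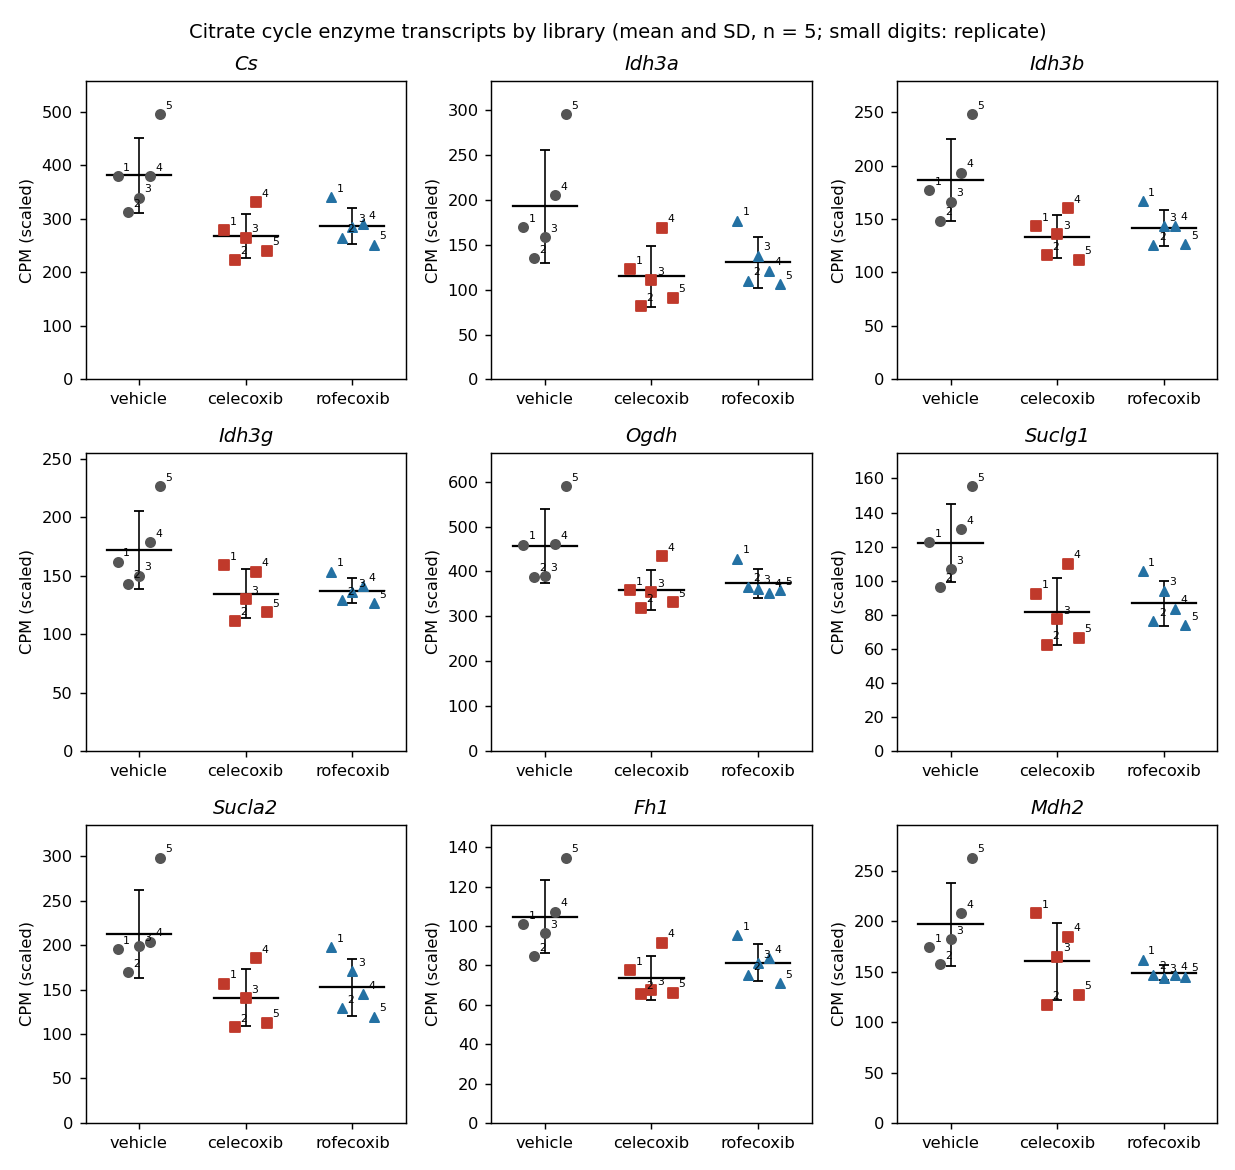
Scaled levels (CPM) of the 9 citrate cycle transcripts in each of the 15 libraries, with 1 panel per gene, a linear axis from 0, the replicate number beside each point, and the group mean and SD (n = 5) as bars. Vehicle library 5 is the highest point in all 9 panels, celecoxib 4 and rofecoxib 1 reach into the vehicle range in every panel, and no panel shows groups that separate.

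Cs encodes citrate synthase, which condenses acetyl-CoA with oxaloacetate and is widely used as a measure of mitochondrial content. The gene lies at chr10:127774686-127799737 in the mm9 coordinates of the deposited table. Its level was 379, 312, 339, 379.8 and 495 CPM in vehicle libraries 1 to 5, 279, 223, 265, 331 and 239.9 CPM in celecoxib libraries 1 to 5, and 340.2, 265, 284, 289.8 and 252 CPM in rofecoxib libraries 1 to 5. All 5 libraries of either treated group stood below the vehicle median, and 4 of 5 in each stood below the lowest vehicle library, with celecoxib 4 and rofecoxib 1 inside the vehicle range. The means were 381 ± 69.8 CPM in vehicle, 268 ± 41.5 CPM after celecoxib and 286 ± 33.9 CPM after rofecoxib (SD, n = 5). The log2 fold change from vehicle was -0.51 (SE 0.13, 95% interval -0.78 to -0.24) for celecoxib, with an adjusted p of 0.269 in edgeR's quasi-likelihood test. For rofecoxib it was -0.41 (SE 0.13, 95% interval -0.69 to -0.14).

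Idh3a, Idh3b and Idh3g encode the alpha, beta and gamma subunits of the NAD-dependent isocitrate dehydrogenase, in which alpha carries the catalytic site and beta and gamma are regulatory. Idh3a (chr9:54434086-54452670, mm9) had the largest differences of the 9 genes. Its level was 169.7, 135, 159, 206 and 296 CPM in vehicle libraries 1 to 5, 123, 81.7, 111, 169 and 91.3 CPM in celecoxib libraries 1 to 5, and 177, 109.9, 138, 121 and 106 CPM in rofecoxib libraries 1 to 5. All 5 celecoxib libraries were below the vehicle median and 4 below the lowest vehicle library, against 4 and 3 of the rofecoxib libraries. The log2 fold change from vehicle was -0.75 for celecoxib (SE 0.23, adjusted p = 0.275 in edgeR's quasi-likelihood test) and -0.57 for rofecoxib (SE 0.23). Idh3a also varied most between libraries, with its highest level 3.62 times its lowest and an SD of 0.48 in log2 CPM over all 15 libraries.

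The regulatory subunits showed smaller differences. Idh3b (chr2:130104843-130110485, mm9) ran from 149 to 248 CPM in vehicle, from 112 to 160.4 after celecoxib and from 126 to 167 after rofecoxib, with log2 fold changes from vehicle of -0.48 (SE 0.13) and -0.40 (SE 0.13). Idh3g (chrX:71024100-71032438, mm9) ran from 143 to 227 CPM in vehicle, from 112 to 159 after celecoxib and from 127 to 153 after rofecoxib, with log2 fold changes of -0.36 (SE 0.12) and -0.33 (SE 0.12). In both genes the treated and vehicle libraries overlapped. The annotated bounds of these genes overlap others that were also counted, Nop56 for Idh3b (mean count 1925 against 4762) and Ssr4 and Srpk3 for Idh3g (1970.1 and 1419 against 4578), and whether counting used strand is not given in the sources used here. Reads of such neighbours may be shared between the rows.

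Ogdh encodes the decarboxylating subunit of the oxoglutarate dehydrogenase complex, which forms succinyl-CoA. The gene (chr11:6191434-6256847, mm9) stood at 459, 388, 389, 460.2 and 590.3 CPM in vehicle libraries 1 to 5, 358, 319, 354, 433 and 332 CPM in celecoxib libraries 1 to 5, and 429, 366, 361, 352 and 358 CPM in rofecoxib libraries 1 to 5. Rofecoxib library 1 was set apart from the other 4 of its group, which lay between 352 and 366 CPM, and celecoxib 4 was the highest of its group. Ogdh varied least of the 9 genes, by 1.85-fold between its lowest and highest library, and its log2 fold changes from vehicle were -0.35 (SE 0.11) and -0.29 (SE 0.11) for celecoxib and rofecoxib.

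Succinyl-CoA ligase is a pair of subunits: the alpha subunit, Suclg1, joins either the ADP-specific beta subunit, Sucla2, or the GDP-specific beta subunit, Suclg2. Suclg1 (chr6:73198174-73227107, mm9) stood at 122, 96.4, 107, 130.2 and 156 CPM in vehicle libraries 1 to 5, 92.4, 62.6, 77.5, 110.0 and 66.5 CPM in celecoxib libraries 1 to 5, and 106, 76.4, 94.2, 83.5 and 73.9 CPM in rofecoxib libraries 1 to 5. Sucla2 (chr14:73924924-73996151, mm9) stood at 195, 169, 198, 204 and 298 CPM in vehicle libraries 1 to 5, 157, 108, 140.0, 185 and 113 CPM in celecoxib libraries 1 to 5, and 197, 129, 171, 145 and 119 CPM in rofecoxib libraries 1 to 5. For both genes all 5 libraries of each treated group lay below the vehicle median, and for Sucla2 vehicle library 5 stood far above the other 4 vehicle libraries. The log2 fold changes from vehicle were -0.58 (SE 0.16) after celecoxib and -0.50 (SE 0.16) after rofecoxib for Suclg1. For Sucla2 they were -0.60 (SE 0.18) and -0.48 (SE 0.18). Suclg2, the beta subunit that is not among the 9, had 80.5 ± 5.94 CPM in vehicle, 77.3 ± 5.70 CPM after celecoxib and 77.4 ± 6.21 CPM after rofecoxib (SD, n = 5), or 0.960 and 0.961 times vehicle.

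Fh1 encodes fumarase, which hydrates fumarate to malate, and Mdh2 the mitochondrial malate dehydrogenase that closes the cycle. Fh1 (chr1:177530303-177555968, mm9) stood at 101, 84.7, 96.4, 107 and 135 CPM in vehicle libraries 1 to 5, 77.7, 65.4, 67.4, 91.5 and 66.2 CPM in celecoxib libraries 1 to 5, and 95.5, 75.2, 81.0, 83.8 and 71.0 CPM in rofecoxib libraries 1 to 5. It had the smallest unadjusted p of the 9 genes for celecoxib, 0.00101 in edgeR's quasi-likelihood test, with a log2 fold change of -0.51 (95% interval -0.77 to -0.24) and an adjusted p of 0.269. Mdh2 (chr5:136254148-136266470, mm9) stood at 174, 158, 182, 208 and 263 CPM in vehicle libraries 1 to 5, 208, 117, 165, 185 and 127 CPM in celecoxib libraries 1 to 5, and 162, 147, 144, 146 and 145 CPM in rofecoxib libraries 1 to 5. For Mdh2, as for Idh3g, celecoxib 1 was the highest library of its group, while celecoxib 4 was the highest for the other 7 genes. For Mdh2 3 of 5 celecoxib libraries lay below the vehicle median, against all 5 for each of the other genes. The log2 fold change of Mdh2 was -0.30 (95% interval -0.63 to 0.036) for celecoxib and -0.40 (95% interval -0.74 to -0.072) for rofecoxib. The rofecoxib libraries spread least for this gene, with a mean of 149 ± 7.29 CPM against 160.4 ± 38.2 CPM after celecoxib and 197 ± 41.1 CPM in vehicle (SD, n = 5).

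**Figure D2:**
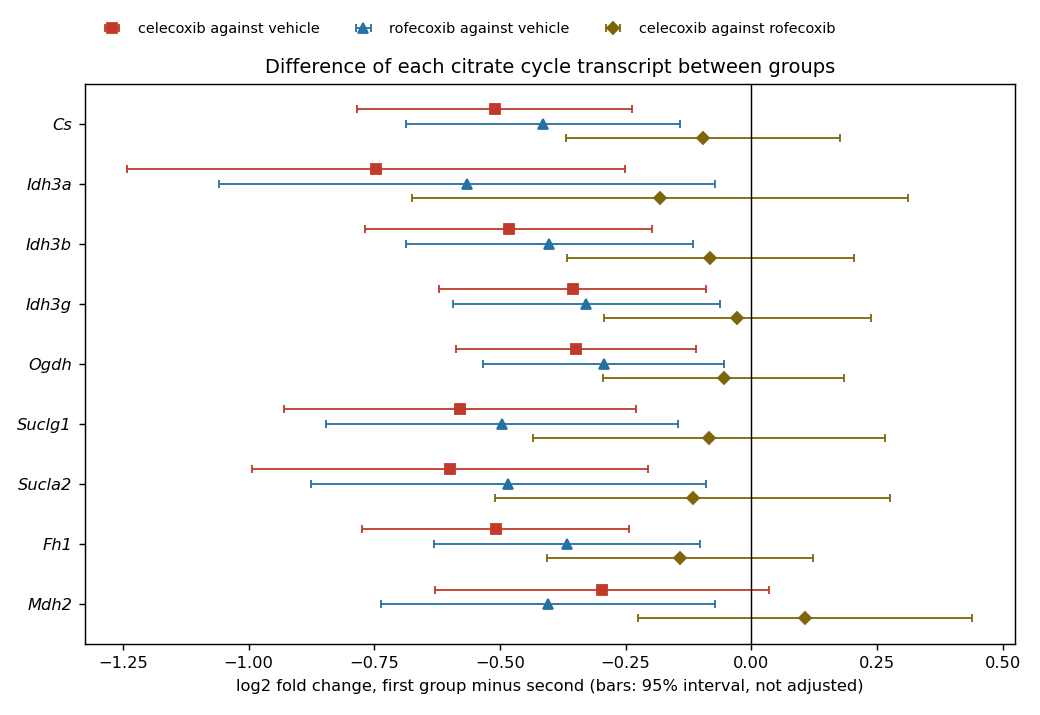
Log2 fold change of each of the 9 transcripts for each compound against vehicle and for celecoxib against rofecoxib, with 95% intervals from edgeR that are not adjusted for the number of genes. Both comparisons with vehicle lie left of 0 for all 9 genes, and only the celecoxib interval of Mdh2 reaches 0 among them, while every interval between the compounds spans 0.

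The compounds were given at different doses, 30 mg/kg for celecoxib and 10 mg/kg for rofecoxib, so the values stand side by side without a matched dose. Mean levels were lower after celecoxib than after rofecoxib for 8 of 9 genes, and higher for Mdh2. The log2 difference between the groups ran from -0.18 for Idh3a (95% interval -0.67 to 0.31) to 0.11 for Mdh2 (95% interval -0.22 to 0.44), with a median of -0.084. Adjusted p in edgeR's quasi-likelihood test (Benjamini-Hochberg) ranged from 0.825 to 0.980, and the share of all genes called was 0%. At an unadjusted p under 0.05, 0 of 9 lay lower, beside 2.91% of all genes, and 0 of 9 had groups that did not overlap, beside 0.634% of all genes in that direction. DESeq2 and limma-voom also called 0 of the 9. Leaving out single libraries moved the median between -0.18 (without celecoxib 4) and -0.0054 (without rofecoxib 1), and Idh3a between -0.35 (without celecoxib 4) and -0.046 (without rofecoxib 1). The 95% intervals leave room for differences in either direction and do not show that the groups were alike.

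The 9 transcripts varied together from library to library. Over the 15 libraries the Pearson correlation of log2 CPM between 2 of the genes ranged from 0.812 (Fh1 with Mdh2) to 0.986 (Cs with Fh1), with a median of 0.957 over 36 pairs. With each group's mean removed, the range was 0.767 to 0.979 and the median 0.932, so the shared variation lay within the groups as well as between them. Celecoxib 2 was the lowest library for 8 of the 9 genes and celecoxib 5 for Idh3b, and vehicle 5 was the highest for all 9. The genes share the same libraries and scaling, and these values are a description with no test. Summed over the 9 genes, levels ran from 1636 to 2708 CPM in vehicle (median 1940.5), from 1205 to 1819 CPM after celecoxib (median 1445) and from 1378 to 1826 CPM after rofecoxib (median 1507).

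The 10 genes most like the mean of the 9, among 9429 others with at least 10 CPM, included Acadvl, Sdha, D10Jhu81e, Coq9, Uqcrc2, Sdhd, Atp5b, Hadhb and Sdhb, and the 10 had Pearson correlations of 0.987 to 0.994 over the 15 libraries. Sdha, Sdhb and Sdhd are subunits of succinate dehydrogenase, an enzyme of the same cycle. Acadvl and Hadhb act in fatty acid oxidation, Coq9 in the making of coenzyme Q, Uqcrc2 in respiratory chain complexes and Atp5b in the ATP synthase. The same 10 genes came first among 13209 genes with at least 1 CPM, and 7 of them with each group's mean removed.

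Ratios between subunit transcripts within a library, in which scaling cancels, were compared between groups in 12 exact two-sided permutation tests. The ratio of Idh3g to Idh3a was 0.919 ± 0.109 in vehicle, 1.21 ± 0.182 after celecoxib and 1.08 ± 0.144 after rofecoxib (SD, n = 5). That of Idh3b to Idh3a was 0.993 ± 0.104, 1.20 ± 0.169 and 1.10 ± 0.107 in the same order. In both, 4 of 5 celecoxib libraries lay above every vehicle library, and celecoxib 4 lay within the vehicle range. The exact permutation p for celecoxib against vehicle was 0.0317 for Idh3g to Idh3a and 0.0476 for Idh3b to Idh3a, each 0.167 after Benjamini-Hochberg adjustment over the 12 tests, where the smallest p that 5 against 5 allows is 0.00794.

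Within succinyl-CoA ligase, the ratio of Suclg1 to Sucla2 was 0.579 ± 0.0528 in vehicle, 0.581 ± 0.0163 after celecoxib and 0.574 ± 0.0331 after rofecoxib (SD, n = 5), and the groups overlapped throughout (exact permutation p = 0.889 for celecoxib against vehicle). The ratio of the ADP-specific to the GDP-specific beta subunit, Sucla2 to Suclg2, was 2.64 ± 0.503 in vehicle, 1.82 ± 0.386 after celecoxib and 1.97 ± 0.412 after rofecoxib (SD, n = 5). It lay below every vehicle library in 4 of 5 celecoxib and 3 of 5 rofecoxib libraries, with exact permutation p of 0.0238 and 0.0556, each 0.167 after adjustment over the 12 tests. No ratio of the 12 tests passed an adjusted p of 0.05, and 3 did so unadjusted.

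**Figure D3:**
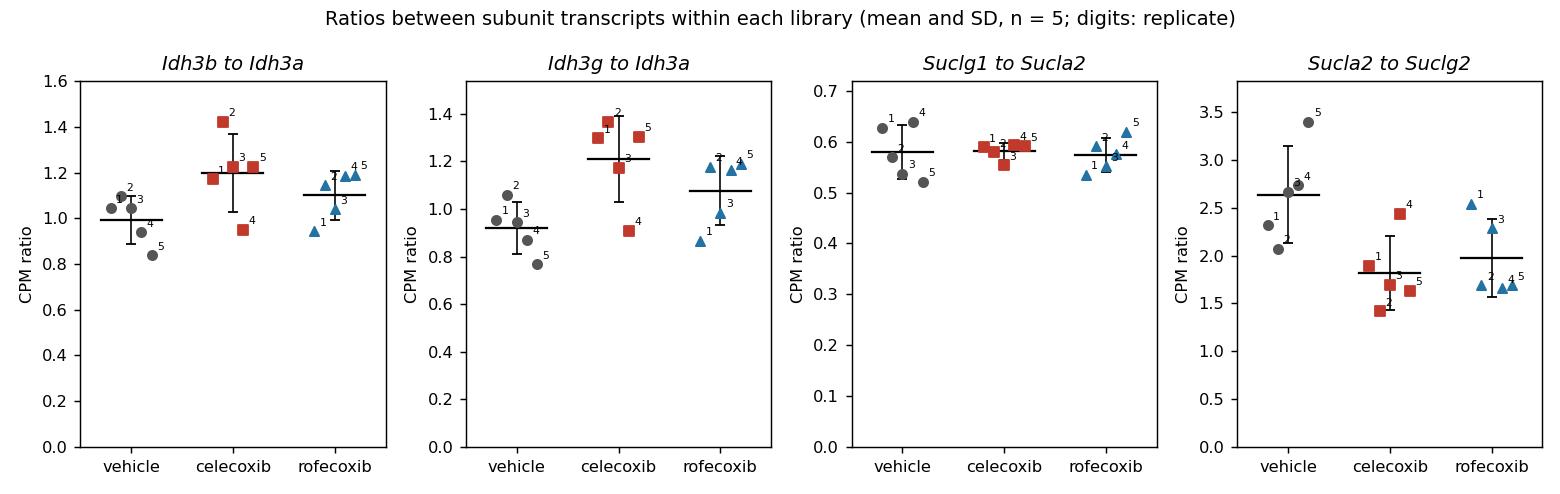
Ratios of CPM between subunit transcripts in each library, with the replicate number beside each point and the group mean and SD (n = 5). Suclg1 to Sucla2 stays between 0.522 and 0.639 in every library, while Sucla2 to Suclg2 ranges from 1.42 in celecoxib 2 to 3.40 in vehicle 5.

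The other 8 genes of the cycle showed the same direction as the 9. All 8 had lower mean levels after each compound, with median log2 fold changes of -0.43 (celecoxib) and -0.38 (rofecoxib); 7 and 6 of 8 lay lower at an unadjusted p under 0.05 and 0 passed the adjusted threshold. Here and in the lists that follow, such counts stand beside 7.18% of all genes lower at that threshold after celecoxib and 3.71% after rofecoxib. After celecoxib and rofecoxib, the succinate dehydrogenase subunits stood at 0.747 and 0.768 times vehicle (Sdha), 0.708 and 0.707 (Sdhb), 0.832 and 0.896 (Sdhc), and 0.713 and 0.742 (Sdhd). Dld, the dihydrolipoyl dehydrogenase shared by several complexes, stood at 0.737 and 0.771 times vehicle. Suclg2 was the gene of this list nearest to its vehicle level.

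A list of 14 genes covered the entry of pyruvate into the cycle and its control, with kinases that inactivate pyruvate dehydrogenase among them. Of these 14, 8 lay lower after celecoxib and 7 after rofecoxib at an unadjusted p under 0.05, with medians of -0.31 and -0.34. The pyruvate dehydrogenase subunits Pdha1 and Pdhb stood at 0.777 and 0.708 times vehicle after celecoxib and at 0.774 and 0.706 times after rofecoxib. The mitochondrial pyruvate carrier subunits Mpc1 and Mpc2 stood at 0.829 and 0.742 times vehicle after celecoxib and at 0.803 and 0.738 times after rofecoxib. Pdk2, a kinase that inactivates pyruvate dehydrogenase, stood at 0.780 and 0.844 times vehicle.

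A list of 15 genes held the cytosolic or alternative counterparts of the enzymes and genes of metabolite exchange, some of them also mitochondrial. Of these, 2 lay lower after celecoxib (beside 7.18% of all genes) and 0 after rofecoxib (beside 3.71%) at an unadjusted p under 0.05, with medians of -0.15 and -0.11. Mdh1, the cytosolic malate dehydrogenase, stood at 0.840 and 0.873 times vehicle, Acly, which cleaves citrate in the cytosol, at 0.789 and 0.784 times, and Aco1 at 0.897 and 0.976 times. Idh1, the cytosolic NADP-dependent isocitrate dehydrogenase, stood at 0.908 and 0.897 times vehicle, the malic enzyme Me1 at 0.891 and 0.901 times, and the oxoglutarate carrier Slc25a11 at 0.878 and 0.957 times. Mitochondrial members of the list, singled out after their values were seen, included the NADP-dependent isocitrate dehydrogenase Idh2 at 0.989 and 0.925 times vehicle after celecoxib and rofecoxib. The mitochondrial aspartate aminotransferase Got2 averaged 88.1 ± 3.04, 93.2 ± 6.05 and 88.4 ± 6.58 CPM, and the glutamate dehydrogenase Glud1 232 ± 13.4, 232 ± 7.09 and 243 ± 13.9 CPM, in vehicle, celecoxib and rofecoxib (SD, n = 5). Of the remaining mitochondrial members, Slc25a1 averaged 61.3, 49.0 and 54.6 CPM and Me3 8.21, 6.83 and 7.15 CPM in the same order. Me2 averaged 11.2, 10.8 and 11.1 CPM, Slc25a10 17.9, 16.1 and 18.5 CPM, and Ogdhl 0.475, 0.671 and 0.649 CPM. Whether the list differed less than the 9 enzymes was not tested.

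Among 9 regulators of mitochondrial genes, 5 lay lower after celecoxib and 1 after rofecoxib at an unadjusted p under 0.05, with medians of -0.23 and -0.17. Esrra, the oestrogen-related receptor alpha, stood at 0.742 and 0.818 times vehicle, the coactivators Ppargc1a and Ppargc1b at 0.654 and 0.467 times after celecoxib and 0.723 and 0.676 times after rofecoxib, and the mitochondrial deacylase Sirt3 at 0.853 and 0.888 times. Nrf1, the nuclear respiratory factor, stood at 1.07 and 1.07 times vehicle. Of 13 genes of mitochondrial housekeeping, 6 and 4 lay lower at an unadjusted p under 0.05, with medians of -0.15 for both compounds. The chaperone Hspa9 stood at 0.779 and 0.808 times vehicle, the inner membrane protein Immt at 0.792 and 0.833 times, the prohibitins Phb and Phb2 at 0.813 and 0.850 times after celecoxib and 0.869 and 0.884 times after rofecoxib, and Timm23 of the import channel at 0.749 and 0.803 times. The outer membrane channels Vdac1, Vdac2 and Vdac3, singled out after their values were seen, stood at 0.980, 0.984 and 0.953 times vehicle after celecoxib and at 1.01, 0.959 and 0.983 times after rofecoxib. In each of these lists 0 genes passed the adjusted threshold in either comparison.

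**Figure D4:**
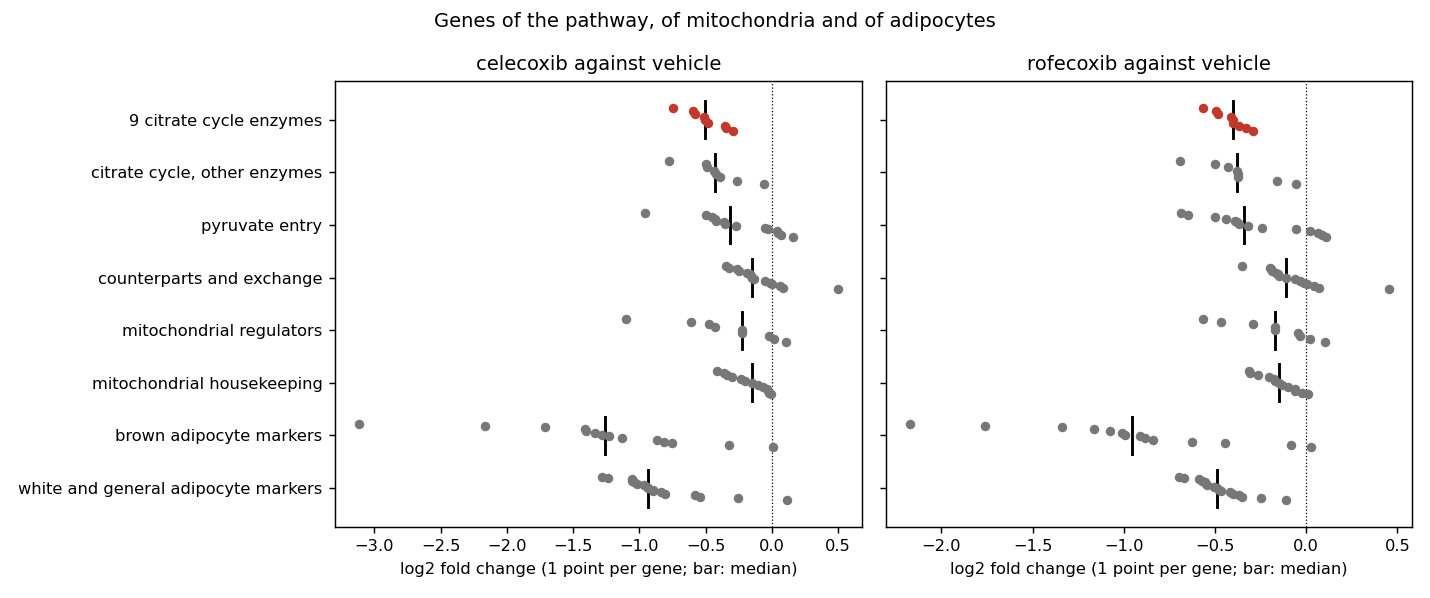
Log2 fold change from vehicle of each tested gene in the 9 citrate cycle enzymes and in the lists set beside them, with 1 point per gene and a bar at the list's median, on linear log2 axes that differ between the panels. The median of the 9 enzymes lies at -0.51 after celecoxib and -0.40 after rofecoxib, those of the other pathway and mitochondrial lists lie nearer to 0, at -0.43 to -0.15 and -0.38 to -0.11, and those of the adipocyte lists lie farther from it, at -1.26 and -0.94 after celecoxib and at -0.95 and -0.49 after rofecoxib.

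Adipocyte markers lay lower in the treated groups too. Of 15 brown adipocyte markers, 14 were tested, and 12 lay lower after celecoxib and 7 after rofecoxib at an unadjusted p under 0.05, with medians of -1.26 and -0.95 and 0 past the adjusted threshold. Summed, they ran from 693 to 1941 CPM in vehicle (median 1003), from 265 to 794 CPM after celecoxib (median 451) and from 427 to 732 CPM after rofecoxib (median 551). Ucp1, the uncoupling protein that defines brown adipocytes, averaged 453 CPM in vehicle, 101 CPM after celecoxib and 134 CPM after rofecoxib, and ranged from 6.63 to 996 CPM over the libraries. Cidea, a lipid droplet protein, averaged 168, 71.6 and 83.2 CPM in the same order, and Prdm16, a regulator of brown fat identity that other cells also express, 158, 159 and 161 CPM. Zic1, the marker left untested, was at 0 in 3 libraries, and no other marker of the list was at 0 in any.

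Of 17 white and general adipocyte markers, 13 lay lower after celecoxib and 0 after rofecoxib at an unadjusted p under 0.05, with medians of -0.94 and -0.49. Summed, they ran from 2748 to 6811 CPM in vehicle, from 1458 to 3659 CPM after celecoxib and from 2052 to 5258 CPM after rofecoxib. Fabp4, a fatty acid carrier, averaged 1028, 551 and 685 CPM in vehicle, celecoxib and rofecoxib, Car3 768, 401 and 552 CPM, and the lipase Lpl 752, 361 and 464 CPM. The 10 smooth muscle markers had medians of 0.10 after both compounds, and summed to 41019.9 to 55114 CPM in vehicle, 48229.9 to 52224 CPM after celecoxib and 46878 to 57465 CPM after rofecoxib. Of 15 markers of striated muscle, another source rich in mitochondria, 12 were tested. These 12 summed to 39.3 to 79.8 CPM in vehicle, 39.7 to 54.7 CPM after celecoxib and 32.5 to 63.6 CPM after rofecoxib. Among them 1 lay lower and 1 higher after celecoxib at an unadjusted p under 0.05, and 0 lower and 1 higher after rofecoxib, with medians of -0.13 and -0.16. Myh4, which was not tested, was at 0 in 12 libraries. The 11 endothelial markers had medians of -0.16 after celecoxib and -0.21 after rofecoxib, with 10 and 11 of 11 below vehicle. Of these, 1 lay lower after each compound at an unadjusted p under 0.05. Of 9 macrophage and 7 fibroblast markers 0 did in either comparison. The 11 nerve markers had positive medians, 1.10 after celecoxib and 0.97 after rofecoxib, with 10 and 9 of 11 above vehicle on average and 0 at an unadjusted p under 0.05 in either direction. Summed, they varied widely within every group, from 46.9 to 432 CPM in vehicle, from 27.1 to 959.7 CPM after celecoxib and from 26.03 to 657 CPM after rofecoxib.

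Library by library, each of the 9 transcripts followed the adipocyte markers. Over the 15 libraries, Pearson's r between a gene's log2 CPM and the mean log2 CPM of the brown adipocyte markers was 0.835 (Mdh2) to 0.952 (Suclg1), and Spearman's rho 0.746 to 0.975. The largest adjusted permutation p over the 27 tests of 9 genes with 3 marker lists was 0.000191 for r and 0.0029 for rho among these 9. Libraries were permuted without regard to group, so the permutation p values here also take in the differences between the groups. Correlations with group means removed have no p, and how many other genes correlate as strongly with the markers was not computed. Without celecoxib 2 and vehicle 5, the libraries farthest from the median of the brown markers, r was 0.677 to 0.973, and with each group's mean removed it was 0.771 to 0.931. With the white and general markers r was 0.723 to 0.898 and rho 0.746 to 0.929 (largest adjusted permutation p 0.00346 and 0.0029), and r was 0.520 to 0.854 without vehicle 4 and 5 and 0.688 to 0.867 with group means removed. With the smooth muscle markers r was -0.650 to -0.514 and rho -0.768 to -0.557 (largest adjusted permutation p 0.0506 and 0.0322), and r was -0.624 to -0.458 without vehicle 3 and 4. With group means removed the smooth muscle r was -0.500 to -0.297, the weakest for Ogdh.

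**Figure D5:**
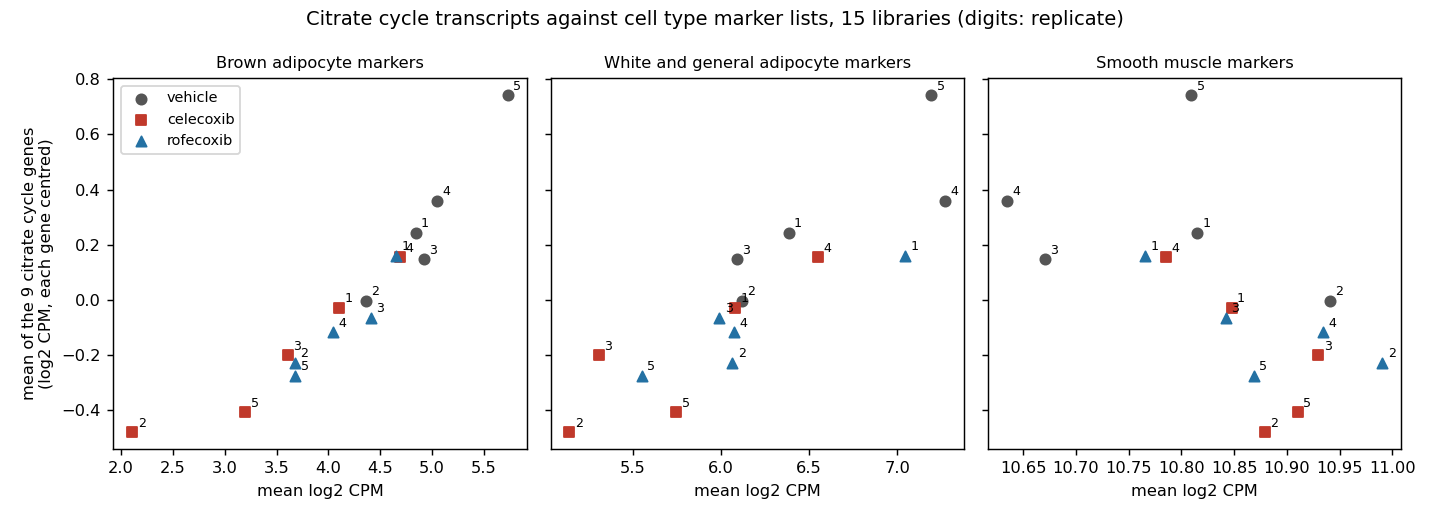
Mean of the 9 citrate cycle genes (log2 CPM, each gene centred on its mean) against the mean log2 CPM of 3 marker lists, with 1 point per library and its replicate number. Libraries rich in brown adipocyte markers sit high on the vertical axis, vehicle 5 at the top right and celecoxib 2 at the bottom left, while the smooth muscle panel slopes the other way over a narrow range.

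When the mean log2 CPM of the brown, white and general adipocyte markers was added to the edgeR model as a covariate, 0 of 9 genes lay lower after celecoxib at an unadjusted p under 0.05 and the median log2 fold change was -0.068. After rofecoxib 3 of 9 did and the median was -0.15. Over all 15134 genes, the number at an unadjusted p under 0.05 in either direction was lower under this model too, 1090 against 1896 for celecoxib and 336 against 784 for rofecoxib. Under this model Idh3g and Mdh2 stood at 0.00911 and 0.12 on the log2 scale for celecoxib against vehicle. The marker mean itself lay lower in the treated groups, so the covariate and the treatment share part of the variation between libraries. With the mean of the nerve markers as a covariate instead, the counts were 8 of 9 and 9 of 9, and the medians -0.51 and -0.40, with 2072 and 846 genes at that threshold in all. The part of the adipocyte transcripts in the differences cannot be told apart from that of the treatment by these fits, and it was not tested.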

How the data were processed

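The authors deposited 1 table of whole-number counts per gene with mm9 coordinates. Per the submitters' processing notes, CASAVA 1.8.2, STAR 2.5.2a and the build mm9 were used. How genes were counted, whether strand was used, which annotation applied and what brought the totals so close together is in each case not given in the sources used here. Per the labels' protocols, libraries were built over 3 days with no day given per library, so no batch could be fitted.

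Counts were tested in edgeR 4.0.16 (R 4.3.3) with filterByExpr, trimmed mean of M-values scaling and 1 robust quasi-likelihood fit over all 15 libraries, adjusted by Benjamini-Hochberg over 15134 genes at a threshold of 0.05. The fit was also run on simulated counts with known changes. Its recovery rates are not given here, and no power at the fold changes seen is drawn from it. Log2 CPM used a prior count of 2, and correlations used 100000 permutations over all 15 libraries without regard to group. No 2 libraries of a group agreed within sampling noise (smallest chi-square per gene 13.0 over 30 pairs). Libraries with the same replicate number did not consistently deviate together, although some pairs did. Alternatives were DESeq2 1.42.0, limma-voom (limma 3.58.1), different filters and scalings, a replicate block, marker covariates and leaving out each library.

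The 9 genes and all lists were chosen with earlier results of these data known. Named genes were the 9 members, up to 4 genes of smallest p per pathway list and comparison with vehicle, up to 3 markers of highest mean CPM per marker list described at gene level, and the 10 genes of most similar pattern, of which 1 is not reported here. The marker genes of nerve, endothelium, macrophages, fibroblasts and striated muscle are given as lists. Genes named for 1 comparison are given for both, and Suclg2 is named as the partner in a ratio. Further mitochondrial members of the list of counterparts, and Vdac1, Vdac2 and Vdac3, were added after their values were seen.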

Additional observations from a re-analysis of the deposited data

Results flagged for a closer look

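In 39 groups of 5 libraries, formed by the 9 transcripts and the 4 subunit ratios in each treatment group, 3 held a library set apart from the other 4 by more than Dixon's 95% limit. For independent groups chance alone gives about 1 in 20. These groups share their libraries and the genes vary together, so they are not independent. Ogdh, the decarboxylating subunit of oxoglutarate dehydrogenase, stood at 429 CPM in rofecoxib library 1, against 352 to 366 CPM in the other rofecoxib libraries. Mdh2, the mitochondrial malate dehydrogenase, stood at 162 CPM in the same library, against 144 to 147 CPM in the others. Sucla2, the ADP-specific beta subunit of succinyl-CoA ligase, stood at 298 CPM in vehicle library 5, against 169 to 204 CPM in the other vehicle libraries.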

How the results depend on the processing

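All 9 genes kept a lower mean than vehicle after each compound under every alternative run, except Idh3g and Mdh2 for celecoxib when the adipocyte marker mean was a covariate (0.00911 and 0.12 on the log2 scale). Under that covariate the count of the 9 genes lower at an unadjusted p under 0.05 was 0 for celecoxib (median -0.068) and 3 for rofecoxib. Over all 15134 genes, 1090 and 336 lay at that threshold in either direction. Between celecoxib and rofecoxib the direction turned for Cs (0.055), Idh3a (0.088), Idh3b (0.073), Idh3g (0.11), Ogdh (0.065), Suclg1 (0.11), Sucla2 (0.10) and Fh1 (0.00382). Mdh2 moved from 0.11 to 0.25, at an unadjusted p of 0.0226 in edgeR's quasi-likelihood test. The smallest adjusted p of the 9 in that comparison was 0.472. Over all genes, 1412 lay at an unadjusted p under 0.05 between the compounds, against 1053 in the main fit. DESeq2 called 3 of the 9 genes after celecoxib, and over all genes 126 for celecoxib, 0 for rofecoxib and 19 between the compounds, where edgeR called 0 in each; without celecoxib 4 edgeR called 8 genes for celecoxib, none of the 9 among them. At an unadjusted p under 0.01 the rofecoxib count was 3, and for celecoxib all of the 9 but Idh3g and Mdh2 lay lower. The share of all genes at that stricter threshold was not computed. At an unadjusted p under 0.05, leaving out single libraries gave rofecoxib counts of 4 to 9 and celecoxib counts of 8 to 9. The 4 came without vehicle 5. Over all genes in these fits, 453 to 1099 lay at that threshold in either direction for rofecoxib and 1330 to 2385 for celecoxib. The counts of the 9 take the lower direction only. Between celecoxib and rofecoxib, leaving out single libraries gave -0.10 to 0.030 for Idh3g and -0.00567 to 0.20 for Mdh2, -0.35 to -0.046 for Idh3a and -0.18 to -0.0054 for the median. The log2 ratio of Suclg1 to Sucla2 differed from vehicle by -0.027 to 0.047 for celecoxib and by -0.045 to 0.028 for rofecoxib, and between the compounds by -0.00706 to 0.046. The cause of these changes was not tested. Other scalings, no filter, limma-voom and fits of only the groups compared moved no count by over 1.5 times.

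Replicate numbers did not consistently pair the libraries: deviations of same-numbered libraries correlated between -0.721 and 0.775 (median -0.00482), over 0.1 in 6 of 15 pairs. With a replicate block the counts were 8 and 9 against vehicle for celecoxib and rofecoxib and 0 between the compounds, and the medians -0.51, -0.40 and -0.10. Over all 15134 genes, those at an unadjusted p under 0.05 in either direction then numbered 1946, 838 and 1070 in the same order.

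The biological coefficient of variation was 0.228 over 5 libraries per group. The near-equal totals hide the depth before deposit, the day of library building is unknown, and vehicle 5 weighs on every comparison with vehicle.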
